A study of Rattus norvegicus with 12 samples.

Results

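Striated muscle microRNAs (miRNAs), often called myomiRs, were followed across 12 small RNA libraries of rat gastric mucosa. They were the rows of the deposited counts whose name, without the species prefix and the arm, is miR-1, miR-1b, miR-133a, miR-133b, miR-133c, miR-206, miR-208a, miR-208b or miR-499. This gave 9 of the 649 mature miRNAs counted: rno-miR-1-3p, rno-miR-1b, rno-miR-206-3p, rno-miR-133a-3p, rno-miR-133a-5p, rno-miR-133b-3p, rno-miR-499-5p, rno-miR-499-3p and rno-miR-208a-5p. No row had a name of miR-133c or miR-208b, and miR-208a had a row for its 5p arm alone.

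The 3 groups held 4 libraries each. Normal rats had no treatment on the labels. Model rats received 180 µg/ml of the alkylating carcinogen MNNG (N-Methyl-N'-Nitro-N-Nitrosoguanidine) in their drinking water for 24 weeks, gavage of 2% sodium salicylate, and cycles of 2 days of feeding and 1 day of fasting. This regimen induces chronic atrophic gastritis, in which the stomach loses its glands. XLHZ rats had the same induction and, per the labels, 60 days of the herbal Xianglianhuazhuo formula. The labels give no strain, sex, age or batch, and no label ties each library to a rat of its own, so each p-value measures the spread between these libraries, which may be technical.

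The miR-1 and miR-133 hairpins are transcribed together from paired loci under myogenic transcription factors. In skeletal and cardiac muscle miR-1 and miR-206 favour differentiation, while miR-133 acts on proliferation and on the serum response factor pathway. Both families are also found in smooth muscle, such as that under the gastric mucosa. miR-499 and the miR-208 miRNAs lie in introns of myosin heavy chain genes and act on the balance of fibre types, and miR-206 is largely restricted to skeletal muscle.

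Mature sequences were found in RefSeq (build GRCr8) for all 9 miRNAs. Those counted well enough to be tested are shown 5′ to 3′, with the seed (bases 2 to 8) in capitals, because the seeds divide them into 4 groups and because near-identical pairs limit how the counts can be read.
rno-miR-1-3p: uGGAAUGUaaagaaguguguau
rno-miR-1b: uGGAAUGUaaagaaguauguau
rno-miR-206-3p: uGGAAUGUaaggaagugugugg
rno-miR-133a-3p: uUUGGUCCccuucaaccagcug
rno-miR-133b-3p: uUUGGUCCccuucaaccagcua
rno-miR-133a-5p: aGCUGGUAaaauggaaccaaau
rno-miR-499-5p: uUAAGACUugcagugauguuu

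miR-1-3p, miR-1b and miR-206-3p had 1 seed in common, and miR-133a-3p and miR-133b-3p another. Counted from 1 at the 5′ end, miR-1b differed from miR-1-3p by G17A alone, and miR-206-3p differed from miR-1-3p by A11G, A21G and U22G. miR-133b-3p differed from miR-133a-3p by G22A, the last base. How reads were assigned to miRNAs was not given in the sources used here, so the split of counts within these pairs is uncertain.

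In GRCr8 miR-1-3p lay on chromosome 18 at 2160339 to 2160360 on the minus strand, and miR-133a-3p at 2157886 to 2157907 and miR-133a-5p at 2157923 to 2157944 on the same strand. RefSeq places this pair of hairpins, Mir1 and Mir133a1, within the bounds of Mib1. miR-1b lay on chromosome 3 at 187864736 to 187864757, with no RefSeq gene over its hairpin. miR-206-3p (30590747 to 30590768) and miR-133b-3p (30594629 to 30594650) were neighbours on chromosome 9. miR-499-5p lay on chromosome 3 at 164570616 to 164570636, inside Myh7b, a myosin heavy chain gene. A single locus was kept for each mature sequence, so any further locus of miR-133a or another member is not shown. The authors' build was not given in the sources used here, so these positions belong to the RefSeq sequences.

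Library totals ran from 9095260 to 11556061 counts of mature miRNAs. The scaling factors between libraries were 0.817 and 0.838 in model libraries 2 and 3 and 0.959 to 1.15 in the other libraries, and those same libraries held the highest levels of most muscle miRNAs. Levels below are counts scaled to a common library size (CPM) by the TMM method over all 12 libraries, with means ± SD over 4 libraries, and library numbers are names without an order.

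The miR-1 family was led by miR-1b. It stood at 8925, 8458, 7113 and 5272 CPM in normal libraries 1 to 4, at 8784, 20304, 20715 and 6023 CPM in model libraries 1 to 4, and at 3935, 11313, 8666 and 5410 CPM in XLHZ libraries 1 to 4. Model libraries 2 and 3 were the highest of the 12 and XLHZ library 1 the lowest, and all 3 groups overlapped. The group means were 7442 ± 1638, 13956 ± 7652 and 7331 ± 3310 CPM. With a mean of 9576 CPM over the 12 libraries, miR-1b ranked 24 among 648 miRNAs.

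miR-1-3p, which differs from miR-1b outside the seed, was high and low in the same libraries at a lower level. It measured 337, 372, 297 and 191 CPM in the normal libraries, 397, 925, 927 and 215 CPM in the model libraries, and 117, 510, 426 and 219 CPM in the XLHZ libraries. Again model libraries 2 and 3 stood above all others, XLHZ library 1 was the lowest, and the groups overlapped. Its share of the counts of the miR-1-3p and miR-1b pair ran from 2.89% (exact Clopper-Pearson 95% interval 2.74 to 3.06) in XLHZ library 1 to 4.68% (4.55 to 4.82) in XLHZ library 3. These intervals cover counting error only, and the lowest and highest shares were both found in the XLHZ group.

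miR-206-3p, the skeletal muscle member of the family, was close to its counting limit. It had 9, 9, 10 and 27 counts in the normal libraries, 20, 10, 56 and 2 in the model libraries, and 12, 14, 9 and 27 in the XLHZ libraries. This is 0.169 to 5.84 CPM, with both extremes among the model libraries, in libraries 4 and 3.

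In the miR-133 family miR-133a-3p was the most abundant arm. Its levels were 748, 725, 700 and 481 CPM in the normal libraries, 781, 1765, 1815 and 557 CPM in the model libraries, and 364, 1047, 726 and 510 CPM in the XLHZ libraries. The model mean of 1229 ± 654 CPM lay above the normal mean of 663 ± 123 CPM and the XLHZ mean of 662 ± 297 CPM. The model mean was carried by libraries 2 and 3: model library 1, at 781 CPM, was just above the highest normal library, and model library 4 was below 3 of the 4 normal libraries. The 3 groups overlapped.

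The opposite arm of the same hairpin, miR-133a-5p, was present at 24.0, 19.8, 18.5 and 12.5 CPM in the normal libraries, 26.6, 52.0, 61.8 and 17.5 CPM in the model libraries, and 9.93, 27.6, 21.4 and 14.6 CPM in the XLHZ libraries. miR-133b-3p, from the locus next to miR-206, was at 89.9, 93.9, 68.5 and 47.5 CPM in the normal libraries, 83.8, 211, 214 and 65.9 CPM in the model libraries, and 39.8, 129, 83.7 and 63.8 CPM in the XLHZ libraries. For each of these arms the highest libraries were again model 2 and 3, the lowest was XLHZ 1, and the groups overlapped. The miR-133b share of the miR-133a-3p and miR-133b-3p pair lay between 8.91% (8.32 to 9.54) in normal library 3 and 11.5% (10.8 to 12.1) in normal library 2.

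miR-499-5p had a different course. It measured 151, 146, 148 and 144 CPM in the normal libraries, 108, 112, 114 and 155 CPM in the model libraries, and 123, 156, 175 and 142 CPM in the XLHZ libraries. Model libraries 1 to 3 were the lowest of all 12, while model library 4 lay above every normal library, so the groups overlapped. Its highest value was 1.61 times its lowest, against 5.26 times for miR-1b and 7.91 times for miR-1-3p.

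The last 2 arms were at the limit of detection. miR-499-3p had 2 to 12 counts in each library. miR-208a-5p, from an intron of the cardiac myosin gene Myh6, had 0 counts in 10 libraries, 1 in model library 3 and 3 in XLHZ library 4; a count of 0 allows up to 0.260 to 0.330 CPM of library totals. Of the markers largely restricted to skeletal or cardiac muscle, miR-206-3p and miR-208a-5p were thus at 0 to 56 counts. The 3p arm of miR-208a had no row, so its level is not known. miR-499-5p, known from heart and slow muscle fibres, had 1006 to 1832 counts in every library. The name striated muscle is used here for the miRNA families, and which cells of the mucosa held them was not measured.

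**Figure D1:**
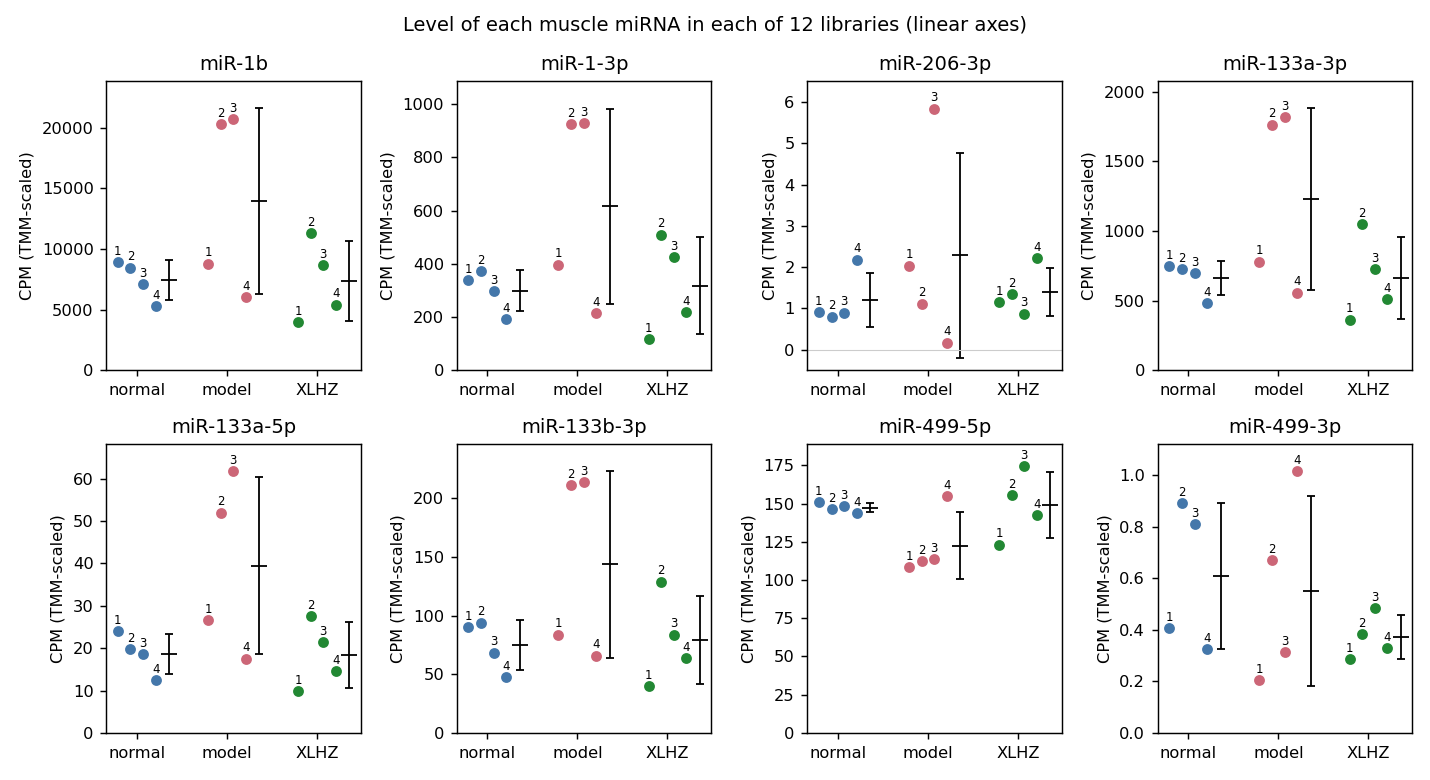
Each panel plots 1 miRNA, with scaled CPM on a linear vertical axis and the 3 groups on the horizontal axis. Points are libraries with their numbers, and the bar to the right of each group is the mean ± SD (n = 4). Model libraries 2 and 3 stand above the rest for miR-1b, miR-1-3p and the miR-133 arms, whereas miR-499-5p is at 108 to 114 CPM in model libraries 1 to 3 and at 155 CPM in model library 4.

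Mature lengths were 21 or 22 bases, and CPM was not corrected for length. How evenly the different sequences were captured was not measured, and the split of counts within the near-identical pairs is uncertain. The order below is therefore one of counts. By mean level over the 12 libraries the order was miR-1b, miR-133a-3p (851 CPM), miR-1-3p (411 CPM), miR-499-5p (140 CPM), miR-133b-3p (99.2 CPM), miR-133a-5p (25.5 CPM) and miR-206-3p (1.63 CPM). The range of miR-1b did not overlap that of any other member. Neighbours below it overlapped down to miR-133a-5p, but miR-133a-3p exceeded miR-1-3p in each library, by 1.70 to 3.10 times. miR-499-5p and miR-133b-3p exchanged places, with miR-133b-3p the higher of the pair in model libraries 2 and 3 alone.

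The model against normal comparison covers the whole induction, and its MNNG, sodium salicylate and feeding and fasting cycles cannot be told apart. Of the 9 miRNAs, 7 passed the filter on low counts (miR-499-3p and miR-208a-5p did not), and none passed the test at an adjusted p under 0.05 (edgeR quasi-likelihood test, Benjamini-Hochberg over all miRNAs). In the whole comparison 1 of 403 miRNAs passed, or 0.248%. At an unadjusted p under 0.05 there were 5 of the 7 muscle miRNAs, beside 29 of 403 miRNAs (7.2%). These 5, miR-1-3p, miR-1b and the miR-133 arms, were high and low in the same libraries. They include both arms of a hairpin and near-identical pairs, so they do not count as 5 independent results. DESeq2 called 0 of the 7, beside 7 of 401 miRNAs (1.75%). Groups that did not overlap were found for 0 of the 7, against 4.56% of 417 miRNAs.

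The point estimates of the miR-1 and miR-133 arms were all on the positive side. The log2 fold change was 0.90 (SE 0.38, edgeR adjusted p = 0.605) for miR-1b and 1.03 (SE 0.44, edgeR adjusted p = 0.605) for miR-1-3p. It was 0.88 (SE 0.37, edgeR adjusted p = 0.605) for miR-133a-3p, and miR-133a-5p had the largest estimate of the 7, at 1.07 (SE 0.39, edgeR adjusted p = 0.601). miR-133b-3p had 0.93 (SE 0.41) and miR-206-3p 0.89 (SE 0.80). miR-499-5p was the exception, at -0.28 (SE 0.18, edgeR adjusted p = 0.647).

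The median of the 7 was 0.90, beside -0.0072 for all miRNAs tested. Of the 7, which are not independent, 6 were positive, beside 198 of 403 miRNAs (49.1%). Model libraries 2 and 3 carried the difference in the median. Without them, an alternative chosen after seeing the data, the median was 0.014, with miR-1b at 0.0045, miR-133a-3p at 0.024, miR-133a-5p at 0.25 and miR-499-5p at -0.14. Libraries 2 and 3 were the highest model libraries for most of the 7, so leaving them out lowers most estimates by construction. Without model library 4, the lowest model library for the miR-1 and miR-133 arms, the median was 1.17. miR-1b was then at 1.15 (SE 0.30, edgeR adjusted p = 0.167) and miR-499-5p at -0.41 (SE 0.16, edgeR adjusted p = 0.370).

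The XLHZ against model comparison asks what the formula changed in the diseased mucosa. None of the 7 passed here either, beside 0.249% of 402 miRNAs in edgeR. At an unadjusted p under 0.05 there was 1 of the 7 (miR-133a-5p), beside 17 of 402 miRNAs (4.23%), and DESeq2 called 0 of the 7, beside 1 of 398 (0.251%). Groups did not overlap for 0 of the 7, beside 1.2% of 417 miRNAs. This comparison and the former one share the 4 model libraries, so their estimates are not independent.

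The estimates were -0.94 (SE 0.45) for miR-1b, -0.96 (SE 0.55) for miR-1-3p, -0.90 (SE 0.45) for miR-133a-3p, -1.11 (SE 0.45) for miR-133a-5p and -0.87 (SE 0.47) for miR-133b-3p, each with an edgeR adjusted p of 0.729. miR-206-3p was at -0.69 (SE 0.78, edgeR adjusted p = 0.824) and miR-499-5p at 0.27 (SE 0.19, edgeR adjusted p = 0.743). The median was -0.90, beside 0.0057 for all miRNAs. It was 0.026 without model libraries 2 and 3, and -1.14 without model library 4.

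Between XLHZ and normal, which differ by both the induction and the formula, no member passed, beside 1.5% of 401 miRNAs in edgeR. At an unadjusted p under 0.05 there were 0 of the 7, beside 35 of 401 miRNAs (8.73%), and DESeq2 called 0 of the 7, beside 7 of 401 (1.75%). Groups did not overlap for 0 of the 7, beside 6.0% of 417 miRNAs. The log2 fold changes ran from -0.053 for miR-133a-5p (SE 0.31) to 0.19 for miR-206-3p (SE 0.46), with miR-1b at -0.050 (SE 0.30) and miR-499-5p at -0.017 (SE 0.12). The standard errors of the miR-1 and miR-133 arms, 0.29 to 0.40 without miR-206-3p, leave room for sizeable differences in either direction.

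**Figure D2:**
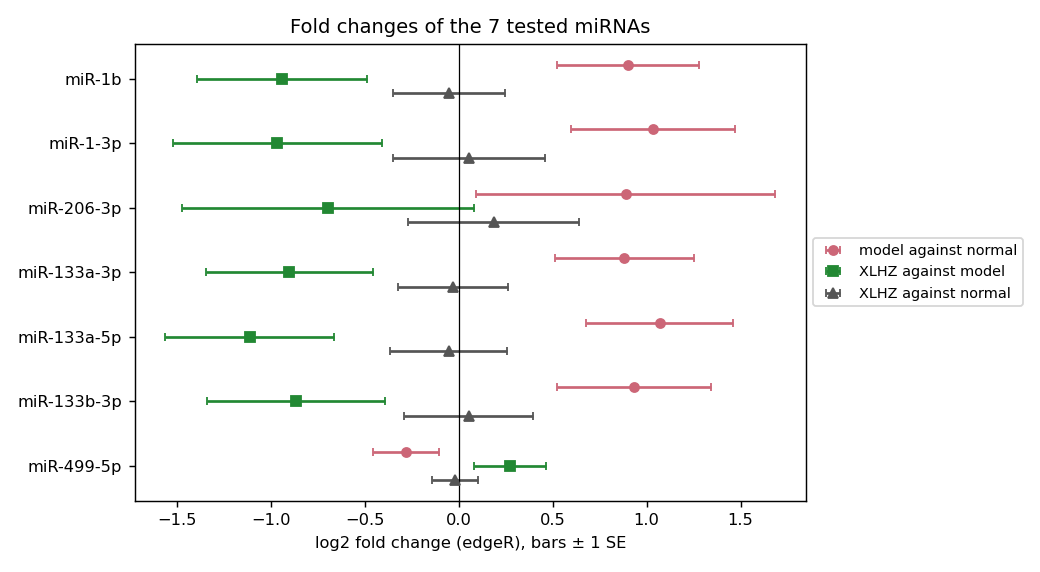
The horizontal axis gives the log2 fold change from edgeR and the vertical axis the 7 tested miRNAs, with a marker for each of 3 comparisons and bars of ± 1 SE. The model against normal estimates lie at 0.88 to 1.07 for the miR-1 and miR-133 arms and at -0.28 for miR-499-5p, the XLHZ against model estimates lie on the opposite side, and no estimate passed the test.

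miR-133a-3p and miR-1b kept a nearly fixed proportion to each other. The ratio of miR-133a-3p to miR-1b counts within a library stayed between 8.37% and 9.84% over the 12 libraries, while the highest miR-1b level was 5.26 times its lowest. Group means of this ratio were 8.98%, 8.90% and 9.08% in normal, model and XLHZ libraries. The SD of its log2 was 0.072, beside 0.73 for the log2 level of miR-1b. Proportions to miR-1-3p varied more. miR-1b outnumbered it by 20.4 to 33.5 times, and the log2 ratio of miR-133a-3p to miR-1-3p had an SD of 0.24.

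Smooth muscle miRNAs were counted in the same libraries. miR-143-3p, the most abundant smooth muscle miRNA, was at 195989, 184215, 139089 and 111209 CPM in the normal libraries, 190421, 357049, 299834 and 126836 CPM in the model libraries, and 81524, 239602, 182990 and 114597 CPM in the XLHZ libraries. The libraries that were high or low in miR-1b were high or low in miR-143-3p as well. The summed arms of miR-143 and miR-145 ran from 128350 to 223292 CPM in normal, from 145372 to 412567 CPM in model and from 96355 to 274924 CPM in XLHZ libraries, with no arm at 0. All 4 arms were positive in model against normal (median log2 fold change 0.62) and negative in XLHZ against model (median -0.67). None passed (smallest edgeR adjusted p of 0.642 and 0.729). Over all miRNAs tested, 49.1% were positive in the former comparison and 51.0% in the latter. The part of the smooth muscle content of a library in the differences of the muscle miRNAs was not tested beyond the ratios that follow. In bulk mucosa, fewer cells of a type and less RNA per cell cannot be told apart.

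Relative to miR-143-3p, miR-1b varied less than its level did. Its highest ratio was 1.52 times its lowest, beside 5.26 times for its level. Its counts were 4.55%, 4.59%, 5.11% and 4.74% of those of miR-143-3p in the normal libraries, 4.61%, 5.69%, 6.91% and 4.75% in the model libraries, and 4.83%, 4.72%, 4.74% and 4.72% in the XLHZ libraries. Model libraries 2 and 3 were the highest, and the other model libraries lay within the normal range. The difference of the mean log2 ratio was 0.19 in model against normal (exact two-sided permutation test, p = 0.2, adjusted p = 0.72) and -0.19 in XLHZ against model (exact p = 0.343, adjusted p = 0.726). The SD of the log2 ratio over the 12 libraries was 0.17.

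**Figure D3:**
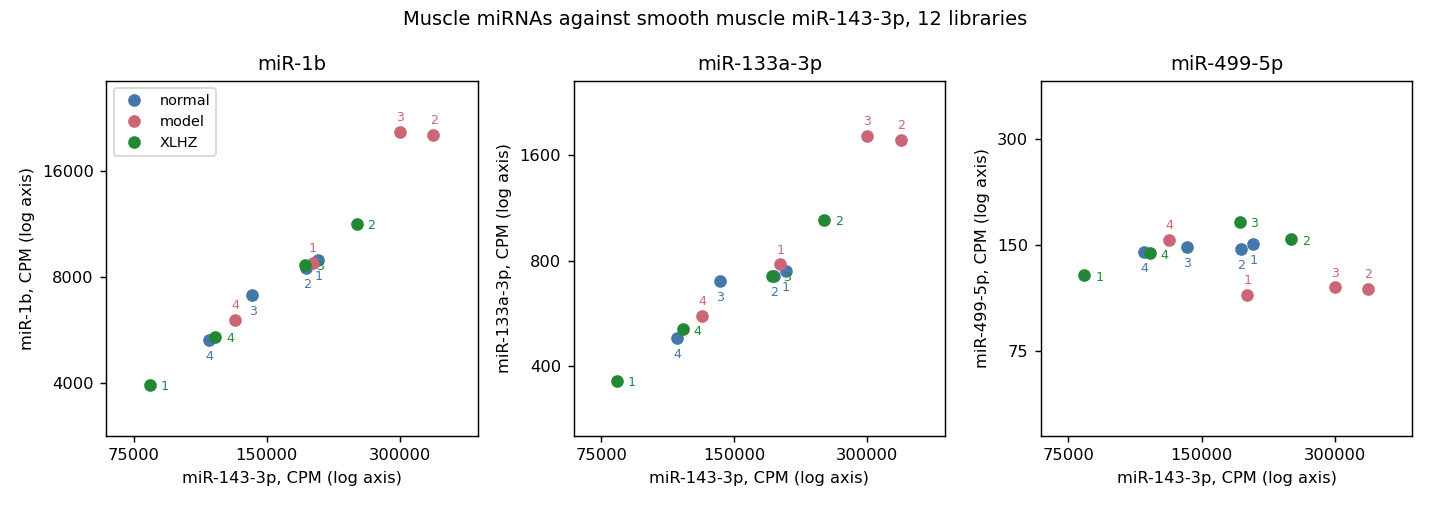
The panels plot miR-1b, miR-133a-3p and miR-499-5p (vertical, CPM, log axis) against miR-143-3p (horizontal, CPM, log axis), 1 point per library, coloured by group and numbered. miR-1b and miR-133a-3p run with miR-143-3p from XLHZ library 1 at 81524 CPM up to model library 2 at 357049 CPM, and miR-499-5p stays within 108 to 175 CPM.

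miR-133a-5p showed the clearest separation of any ratio. It amounted to 0.0123%, 0.0108%, 0.0133% and 0.0113% of miR-143-3p in the normal libraries, 0.0140%, 0.0146%, 0.0206% and 0.0138% in the model libraries, and 0.0122%, 0.0115%, 0.0117% and 0.0127% in the XLHZ libraries. All 4 model libraries stood above all normal and all XLHZ libraries. The narrowest gap was small, with 0.0138% in model library 4 against 0.0133% in normal library 3. This arm had 155 to 236 counts in the normal libraries and 207 to 592 in the model libraries. Whether that gap exceeds counting error was not tested. How often ratios to miR-143-3p separate the groups in this way over all miRNAs was not tested either. The difference of the mean log2 ratio was 0.39 in model against normal and -0.37 in XLHZ against model, each with an exact permutation p of 0.0286, the smallest that 4 against 4 libraries can give. Over the 36 ratios tested the adjusted p was 0.514, so neither difference passed. With that smallest exact permutation p, no ratio could pass over 36 tests unless many ratios reached it together. An adjusted p above 0.05 in this family therefore does not show that a ratio was unchanged. The miR-133a-5p differences were the only 2 of the 36 with an unadjusted p under 0.05.

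Against the other arm of its own hairpin, miR-133a-5p was 3.21%, 2.74%, 2.65% and 2.62% of miR-133a-3p in the normal libraries, 3.41%, 2.95%, 3.41% and 3.15% in the model libraries, and 2.74%, 2.64%, 2.96% and 2.86% in the XLHZ libraries. Normal library 1 and XLHZ library 3 reached into the model range. The exact permutation p was 0.0857 for model against normal and 0.0571 for XLHZ against model, with an adjusted p of 0.588 for each.

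miR-499-5p did not keep a fixed proportion to the other muscle miRNAs. It was 20.2%, 20.2%, 21.2% and 29.9% of miR-133a-3p in the normal libraries, 13.9%, 6.37%, 6.27% and 27.8% in the model libraries, and 33.9%, 14.9%, 24.1% and 27.9% in the XLHZ libraries. Model libraries 2 and 3 had the lowest ratios and XLHZ library 1 the highest, the reverse of the order for miR-133a-3p itself. The log2 level of miR-499-5p had an SD of 0.22, beside 0.70 for miR-133a-3p and 0.62 for miR-143-3p. Its ratios to these miRNAs therefore mostly follow the inverse of the other miRNA. The differences of the mean log2 ratio, -1.02 and 1.11, had an exact permutation p of 0.114 each (adjusted p = 0.588). Relative to miR-143-3p the miR-499-5p differences were -0.84 in model against normal (exact permutation p = 0.143, adjusted p = 0.643) and 0.95 in XLHZ against model (exact permutation p = 0.114, adjusted p = 0.588). Between XLHZ and normal none of the 12 ratios had an unadjusted p under 0.05, and the smallest adjusted p of these exact tests was 0.726.

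**Figure D4:**
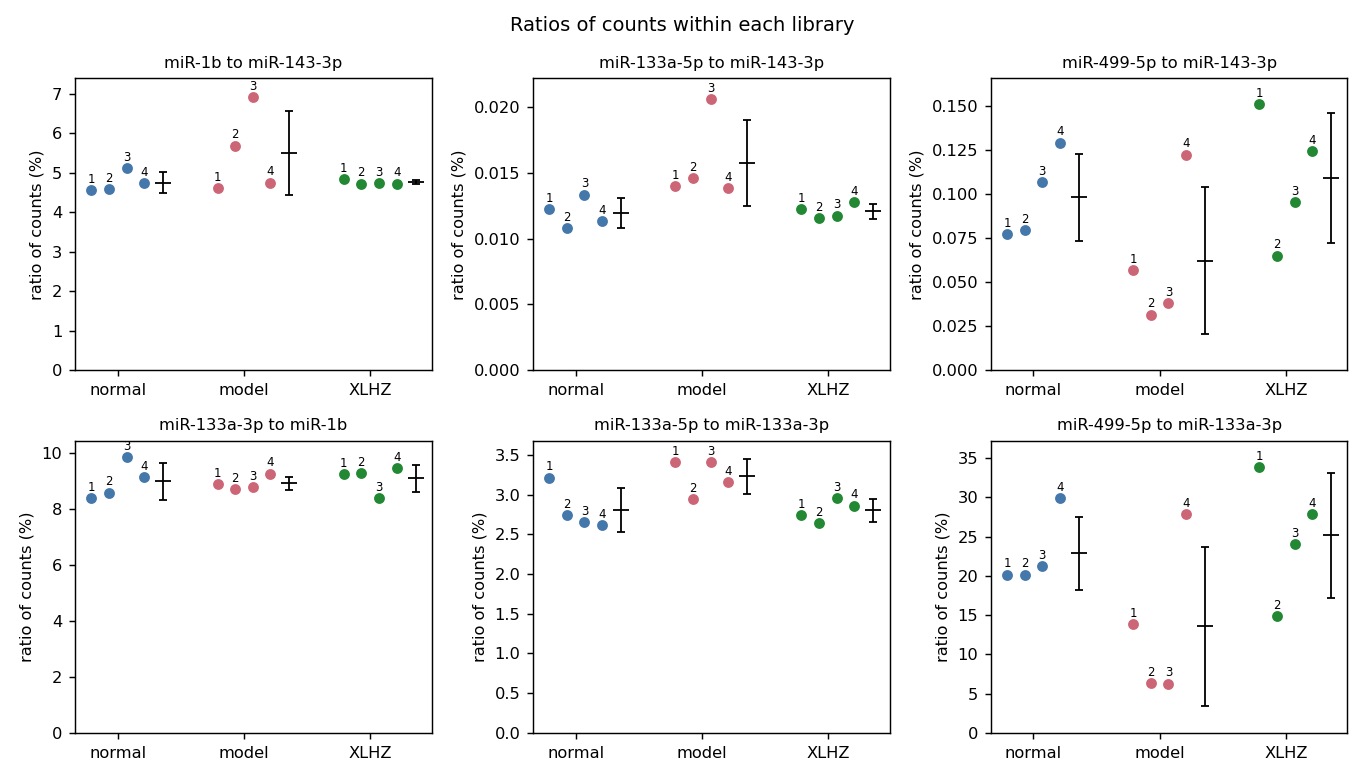
Each panel plots the ratio of 2 miRNA counts within a library, in percent on a linear axis from 0, by group, with library numbers and mean ± SD (n = 4). The ratio of miR-133a-3p to miR-1b stays between 8.37% and 9.84%, the ratio of miR-133a-5p to miR-143-3p is 0.0138% or more in the model libraries and 0.0133% or less elsewhere, and the ratio of miR-499-5p to miR-133a-3p spreads from 6.27% to 33.9%.

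Likeness of profiles was measured as the root-mean-square difference of log2(CPM + 0.5), centred for each miRNA on its mean over the 12 libraries, among 417 miRNAs. These 12 points share library and depth, and the measure is a description. The nearest profile to miR-1b was miR-133a-3p, at 0.069. Outside the muscle list the nearest to miR-1b were miR-490-5p (0.125), miR-143-3p (0.166) and miR-145-3p (0.181). miR-490-5p, whose hairpin lies within the muscarinic receptor gene Chrm2, was also the nearest non-member of miR-1-3p (0.201), miR-133b-3p (0.101) and miR-133a-5p (0.182), and the second of miR-133a-3p (0.171) after miR-145-5p (0.164). miR-490-3p (0.209) and miR-143-3p (0.284) followed for miR-1-3p, miR-143-3p (0.195) and miR-145-3p (0.196) for miR-133b-3p, miR-218a-5p (0.219) and miR-143-3p (0.228) for miR-133a-5p, and miR-143-3p (0.177) for miR-133a-3p.

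miR-490-5p itself stood at 35.1, 33.0, 21.7 and 16.2 CPM in the normal libraries, 31.3, 81.9, 70.4 and 22.01 CPM in the model libraries, and 13.7, 44.3, 33.3 and 20.9 CPM in the XLHZ libraries, again highest in model libraries 2 and 3 and lowest in XLHZ library 1. The nearest profiles to miR-499-5p were of another kind: endothelial miR-126a-3p (0.150), miR-186-5p (0.159) and miR-582-3p (0.163). The SD of the log2 level of miR-499-5p was itself only 0.22. Profiles that vary little lie near each other by this measure, so this likeness is weak. The miR-1 and miR-133 arms lay 0.78 to 0.93 from miR-499-5p.

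**Figure D5:**
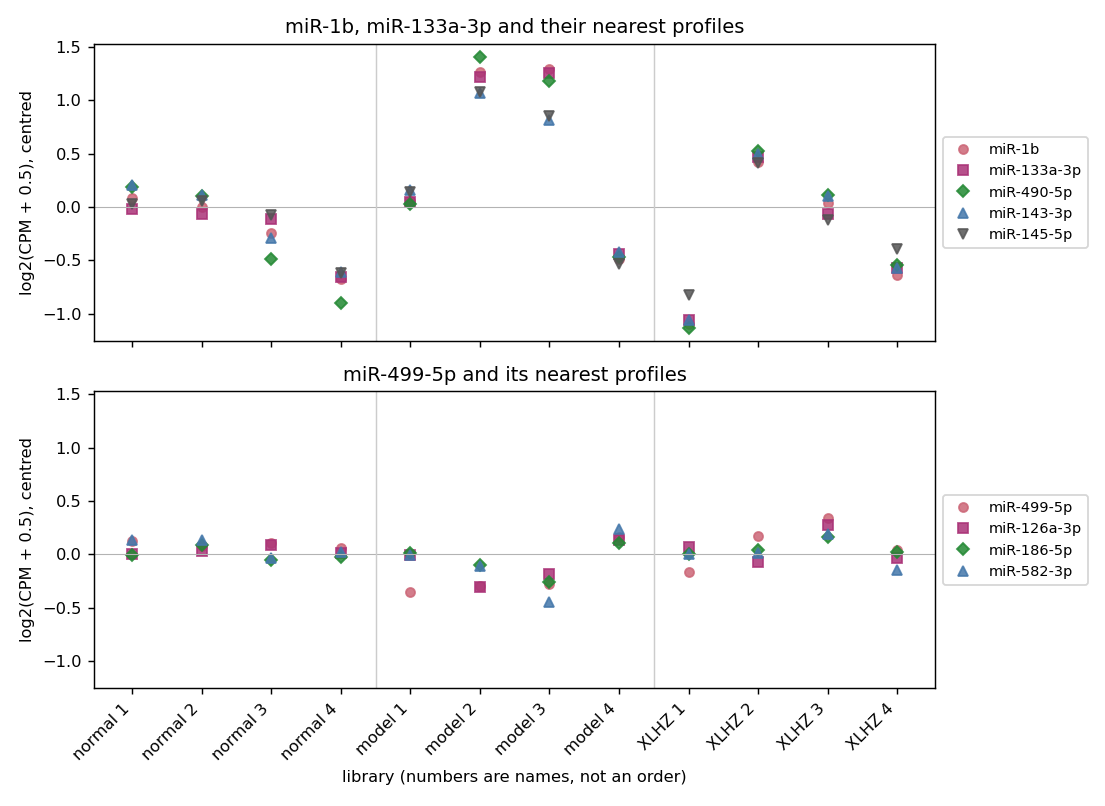
The vertical axis is log2(CPM + 0.5) centred on the mean of each miRNA, and the horizontal axis lists the 12 libraries by group. In the upper panel miR-1b, miR-133a-3p and their nearest profiles are highest in model libraries 2 and 3 and lowest in XLHZ library 1. In the lower panel miR-499-5p and its nearest profiles spread less, with root-mean-square differences of 0.150 to 0.163 from miR-499-5p.

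miRNAs known to act in muscle differentiation without being restricted to muscle did not share the pattern. Of 11 such miRNAs 3 had a positive and 8 a negative estimate in model against normal (median log2 fold change -0.035, with -0.0072 over all miRNAs), and 4 and 7 in XLHZ against model (median -0.064), and none passed in either. miR-26a-5p, the most abundant of them and a regulator of myoblast differentiation, averaged 57053 ± 2793 CPM in normal, 57460 ± 7375 CPM in model and 54695 ± 1776 CPM in XLHZ libraries. miR-29b-3p averaged 8433 ± 1282, 9290 ± 1072 and 9338 ± 1457 CPM. For each of the pair, group means differed by less than the larger SD of the groups compared.

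The neuronal list had medians near those of the smooth muscle list (0.62 and -0.67). In model against normal 7 of 8 were positive (median 0.64), beside 49.1% of all miRNAs tested. In XLHZ against model, where 51.0% of all miRNAs tested were positive, 7 of 8 were negative (median -0.77). None passed in either comparison. Its sum ran from 948 to 1215 CPM in normal, 1038 to 2173 CPM in model and 854 to 1263 CPM in XLHZ libraries, again with model library 2 highest and XLHZ library 1 lowest. Its most abundant members were miR-128-3p, at 323 ± 40.9, 364 ± 12.6 and 353 ± 14.5 CPM, and miR-9a-5p, at 316 ± 68.9, 487 ± 184 and 279 ± 72.3 CPM in normal, model and XLHZ libraries. The glandular epithelial list, led by miR-200a-3p and miR-200b-3p, had 4 of 8 positive in each of these comparisons (medians -0.040 and 0.064). Its sum was lowest, at 75109 CPM, in model library 2 and was 93249 to 115482 CPM in the others. The part of these contents in the muscle miRNA differences was not tested.

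In the same 2 comparisons no member passed in the lists for squamous epithelium (miR-31a-5p and miR-205 most abundant, 0 of 4 and 2 of 4 positive), leukocytes (miR-142-3p and miR-150-5p, 0 of 4 and 4 of 4), erythroid cells (miR-451-5p and miR-144-5p, 2 of 3 and 3 of 3), endothelium (miR-126a-3p and miR-126a-5p, 0 of 2 and 2 of 2) and fibroblasts (miR-199a-3p and miR-199a-5p, 1 of 3 and 0 of 3). In XLHZ against normal 1 miRNA of all these lists passed, the erythroid miR-144-5p, at a log2 fold change of 1.89 (SE 0.32, edgeR adjusted p = 0.0136).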

How the data were processed

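The authors deposited 2 tables of raw counts per mature miRNA, one of normal and model and one of model and XLHZ libraries, with CPM columns (counts scaled by the column total, per the file headers and the values) that were not used for any result. Libraries were made with a QIAseq kit from total RNA with integrity numbers above 7.0 and read on an Illumina HiSeq sequencer, per the labels' protocols. Bowtie and DESeq are named per the submitters' processing notes. The build, the counting rule and any use of molecular identifiers were not given in the sources used here.

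Deposited tables held 639 and 632 miRNAs, 622 in both, and the model counts were identical for 621. The exception was left out of the joined table, and miRNAs in 1 table only (27) were taken as 0 in the other. All 9 muscle rows were identical in both. A fit to the 8 libraries of each comparison used edgeR 4.0.16 (R 4.3.3; glmQLFTest, TMM, filterByExpr with a minimum count of 10), with Benjamini-Hochberg adjustment over all miRNAs at 0.05. SE was obtained as the fold change on the log2 scale over the root of F. Ratios within a library (0.5 added to each count) were compared by exact two-sided permutation tests in Python 3.11.15, 36 as 1 family. Procedures were tested on simulated counts. DESeq2 1.42.0 was an alternative.

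The members and lists were chosen with earlier results of these data known. Named miRNAs are all members, the 3 nearest non-member profiles of each member with a mean of at least 10 CPM, and the 2 most abundant of each list. Alternatives were RLE, upper-quartile and total-count scaling, no filter, at least 50 counts in 4 libraries, DESeq2, all 12 libraries in 1 fit, the replicate block, each library left out, and for ratios a pseudocount of 1 or miR-145-5p as reference. Libraries of a group differed beyond sampling noise in every pair.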

Additional observations from a re-analysis of the deposited data

Results flagged for a closer look

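In 21 sets of 4 libraries (7 muscle miRNAs in 3 groups), 2 held a library whose gap to its nearest neighbour was large for 4 values by Dixon's criterion at 95%. Chance gives about 1 such set in 20. miR-206-3p had 2.18 CPM in normal library 4, 0.917 of the range away from the other normal libraries, which rests on 27 counts against 9 to 10. miR-499-5p had 155.1 CPM in model library 4, 0.883 of the range away from the other model libraries at 108 to 114 CPM.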

How the results depend on the processing

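The count of muscle miRNAs that passed was 0 in all 3 comparisons and under all alternatives run. Of 118, 118 and 111 values of single members under alternatives none passed, with a smallest adjusted p of 0.154, 0.307 and 0.687 in model against normal, XLHZ against model and XLHZ against normal. Signs changed for 2, 4 and 27 of them. miR-206-3p in model against normal ran from -0.16 (without model library 3) to 1.37 as single libraries were left out, and was -0.20 without model libraries 2 and 3. In XLHZ against model it ran from -1.08 to 0.36 (without model library 3). Without model libraries 2 and 3, miR-1-3p, miR-133b-3p and miR-206-3p were at 0.026, 0.050 and 0.38 there. The XLHZ against normal estimates lay near 0 and took both signs as single libraries were left out: -0.28 to 0.35 for miR-1-3p, -0.36 to 0.19 for miR-133a-3p, -0.33 to 0.17 for miR-133a-5p, -0.30 to 0.29 for miR-133b-3p, -0.35 to 0.17 for miR-1b, -0.16 to 0.70 for miR-206-3p and -0.058 to 0.080 for miR-499-5p. Upper-quartile scaling gave 0.0085 for miR-133a-3p and 0.055 for miR-499-5p, library totals 0.032 and all 12 libraries in 1 fit 0.016 for miR-499-5p. With the replicate block miR-1-3p was at -0.094 and miR-133b-3p at -0.016 in that comparison. Correlations of same-numbered libraries ran from -0.34 to 0.47, and whether they share more than a number was not tested. In XLHZ against model the block took miR-1b from an SE of 0.45 to 0.21 and from an edgeR adjusted p of 0.729 to 0.312. The SE of miR-1-3p and of the miR-133 arms also fell, while those of miR-206-3p and miR-499-5p rose. The block left the count of muscle miRNAs that passed at 0 (over all miRNAs, 5 in place of 6 passed in XLHZ against normal). Library totals alone moved the median of all miRNAs to -0.12 in model against normal and 0.17 in XLHZ against model, with member medians of 0.70 and -0.69. Of the 12 ratios, 5 were recomputed under alternatives in 2 comparisons, without XLHZ against normal, and all 106 values kept their direction. With 1 library left out the smallest possible exact p was 0.0571 and with the block 0.125, so these could not pass, and the 16 values with another pseudocount or reference had a smallest adjusted p of 0.514. For those 16 the smallest possible exact permutation p was 0.0286 over 36 tests. They could pass only if many ratios reached it together. The cause of these changes was not tested. miR-206-3p, miR-499-3p and miR-208a-5p are limited by depth, with 56 counts or fewer in each library.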
